A study of Mus musculus with 7 samples.

Results

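The miRNAs of an X-linked cluster, miR-322, miR-503, miR-351, miR-542 and miR-450, were followed in cultured primary myogenic progenitor cells of the mouse, the precursors of new muscle fibres. Members were chosen by name: every assay of mouse (mmu) or rat (rno) sequence for one of these miRNAs, with any letter or arm. The rule found 9 of the 375 miRNA assays, 7 for mouse sequences and 2 for rat sequences (rno-miR-351 and rno-miR-450a). Of these, 8 gave a threshold cycle (Ct) in all 24 rows and were tested. Counts of members are counts of assays and not of separate miRNAs. By name, miR-351 and miR-450a each enter as a mouse and a rat assay, and miR-542 as both its arms.

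The cells came from C57BL/6J hind limb muscle at passage 3 and were assayed by TaqMan PCR on 6 days, each with 4 rows of values (a day column). In the differentiation course they were seeded on a coat of entactin, collagen IV and laminin, kept in growth medium for 24 hours (day 0), and then moved to DMEM with 2% horse serum for 1, 2 or 5 days. In the proliferation course they were grown for 2 or 5 days on type I collagen in growth medium, which was Ham's F-10 with 20% FBS and 10 ng/ml FGF-2. The media thus differ in coat, seeding and basal medium as well as in serum and FGF-2. Differentiation days count from the end of the 24 hours in growth medium. The same day number may therefore not be the same time since seeding. These differences cannot be told apart. The labels name no altered gene in any group.

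A Ct is the PCR cycle at which an assay crosses its detection threshold, so 1 cycle less stands for about 2-fold more template. Levels are given on the log2 scale as the Ct of the small nuclear RNA MammU6 minus the Ct of the assay in the same row. A less negative level therefore means more miRNA. A second scale uses the median of the 221 miRNA assays with a Ct in every row as its zero. The efficiency of each assay is unknown, so levels are compared between days and not between miRNAs. Nothing states that the 4 rows came from separate cultures. The p-values therefore measure only spread between rows, which may be technical. In total RNA, fewer cells with a miRNA and less of it per cell cannot be told apart.

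A miRNA is a short RNA that pairs with messenger RNAs through its seed, the bases near its 5′ end, and lowers the protein they give. Several miRNA hairpins can be cut from a single primary transcript, so neighbours in a cluster often share transcription while differing in their targets. miR-322 (miR-424 in human) and miR-503 belong to the extended miR-15/16 family, which is known for acting on cell cycle regulators, and they have been described as lowering the phosphatase Cdc25a when mouse myoblasts leave the cell cycle. miR-351 carries the seed of miR-125 and has been described as acting on the transcription factor E2f3 in mouse myogenic progenitors.

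The mature sequences show which members can be expected to share targets. They are RefSeq entries on GRCm38.p6, printed 5′ to 3′ with the seed (bases 2 to 8) in capitals. All lie on the minus strand of chromosome X, and they run here in the order of transcription. Assay names without an arm were read as the 5p arm.
miR-322-5p: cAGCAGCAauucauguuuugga
miR-503-5p: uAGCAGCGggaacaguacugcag
miR-351-5p: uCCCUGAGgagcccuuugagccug
miR-542-5p: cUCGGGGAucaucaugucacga
miR-542-3p: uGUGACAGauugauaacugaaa
miR-450a-5p: uUUUGCGAuguguuccuaauau
miR-450b-5p: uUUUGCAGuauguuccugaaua
miR-322 and miR-503 share bases 2 to 7 and differ at base 8 (A8G, from miR-322 to miR-503, counted from the 5′ end). miR-450a and miR-450b differ at the last bases of the seed (G7A and A8G). No pair of mouse members shares all bases 2 to 8. The rat sequences are not shown, and which mouse miRNA a rat assay reads was not tested.

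The 7 hairpins span 6353 bases in 2 blocks. The first holds Mir322 (chrX:53054255-53054349), Mir503 (chrX:53053984-53054054) and Mir351 (chrX:53053255-53053353), which fall within 1095 bases and inside the annotated long noncoding RNA C430049B03Rik (chrX:53053112-53057190). A gap of 3767 bases follows. The second block holds Mir542 (chrX:53049403-53049487), Mir450-2 (chrX:53048299-53048367), Mir450-1 (chrX:53048154-53048244) and Mir450b (chrX:53047997-53048078) within 1491 bases, outside the annotated long noncoding RNA. Mir450-1 and Mir450-2 give the same mature miR-450a-5p, so that assay cannot separate them.

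Signal differed widely between assays. mmu-miR-322 had Ct values of 20.06 to 23.11 over the 24 rows, mmu-miR-351 of 20.76 to 24.65 and mmu-miR-503 of 21.07 to 25.13. mmu-miR-450a-5p lay between 25.07 and 28.20, mmu-miR-542-3p between 25.34 and 28.96, and mmu-miR-542-5p between 25.56 and 28.97. rno-miR-351 ran from 20.44 to 23.91 and rno-miR-450a from 27.84 to 33.79. mmu-miR-450b-5p had a Ct in only 5 rows, at 37.34 to 39.69 of 40 cycles, and was not tested on any day. MammU6 itself was at Ct 12.30 to 13.85, and the median miRNA at 23.57 to 25.86.

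The label of the cells was set against marker miRNAs. All 6 muscle miRNAs on the list (miR-1, miR-133a, miR-133b, miR-208b, miR-486 and miR-499) had a Ct in every row. Their summed level against MammU6 was -2.42 to -1.47 on differentiation day 0, -1.78 to -1.04 on day 1, -0.03 to 0.97 on day 2 and 1.39 to 2.08 on day 5. It was -2.05 to -0.53 on proliferation day 5 and -2.69 to -2.01 on day 2. This sum was thus highest late in differentiation. Each sum adds the levels of a list on the linear scale, with wells without a Ct adding nothing, and is given as log2. It is led by the assays of earliest Ct, so it does not show that every miRNA of a list moved. The neuron list also moved with differentiation: its 2 measured members, miR-9 and miR-128a, summed to -8.20 to -7.04 on differentiation day 5, against -11.43 to -10.23 on day 0. All 5 fibroblast and smooth muscle markers were measured in every row, and their sums overlapped between differentiation day 5 (-5.51 to -4.33) and day 0 (-5.72 to -4.36). Of the blood cell markers 3 of 6 had a Ct in every row, with sums of -8.08 to -7.44 on day 5 and -7.32 to -6.33 on day 0. The endothelial pair summed to -9.77 to -8.88 on day 5 and -10.86 to -9.58 on day 0. Of 6 epithelial markers 2 had a Ct in every row and miR-429 had none, and their sum reached at most -14.66 in any row. The part of other cell types in the member values was not tested.

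Rows of a day moved together. Row 4 of differentiation day 1 held the highest level of all 8 tested members against MammU6, and row 2 of proliferation day 5 did so too. The second of these had the latest MammU6 of its day, at Ct 13.64 against 12.47 to 12.85 in the other 3 rows. That row was the highest for 1 of the 8 members against the row median. Row 1 of proliferation day 5 was the lowest for all 8 on both scales. Row 1 of the differentiation days had the latest MammU6 on each day (Ct 13.25 to 13.85). Row 1 of differentiation day 2 was the lowest for all 8 members against the row median and for 0 against MammU6. The part of the reference in these rows was not tested.

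**Figure D1:**
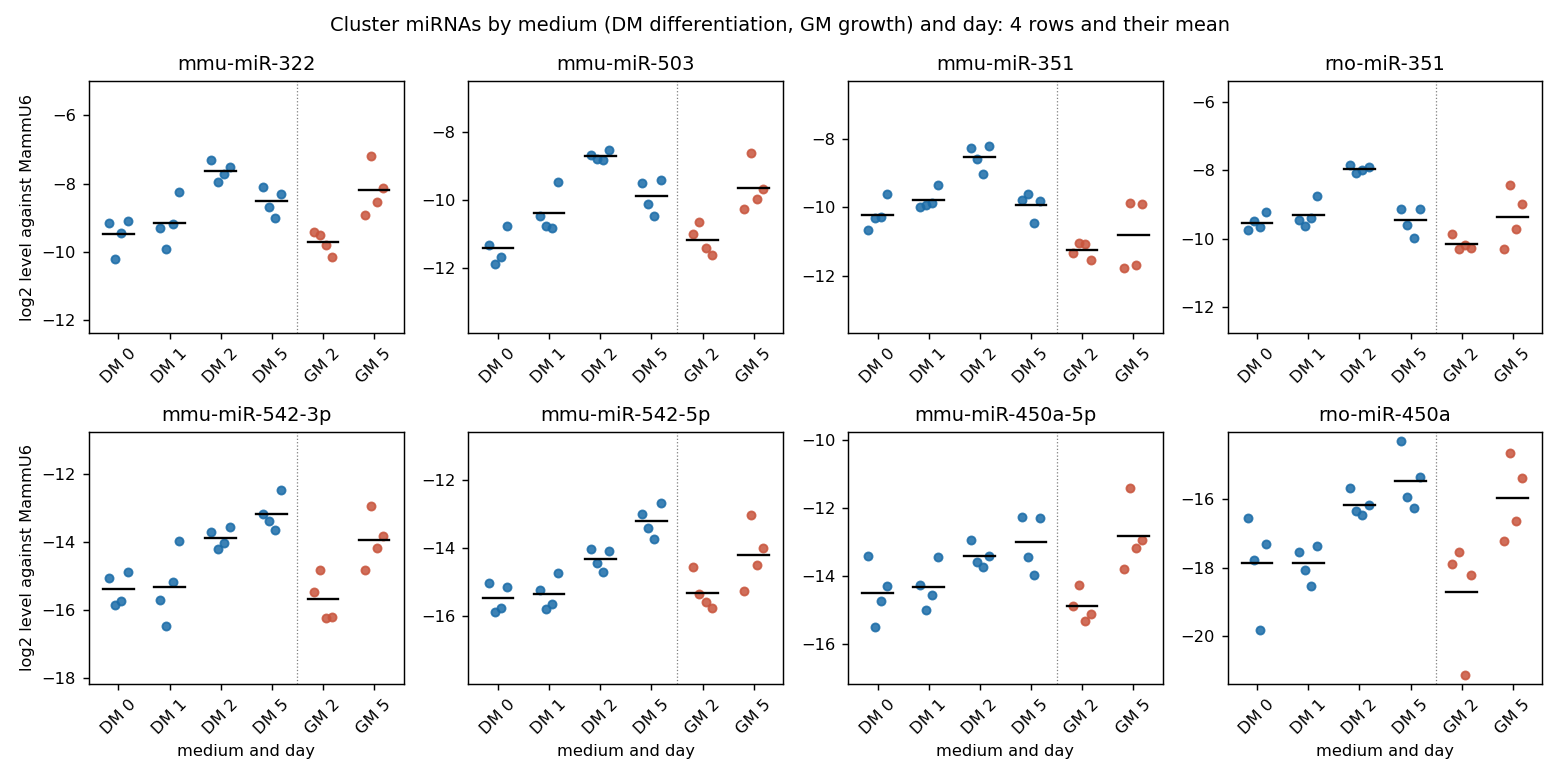
Each panel plots the log2 level of 1 cluster miRNA against MammU6 (y axis, spanning the same number of log2 units in every panel) in the 4 rows of each medium and day (x axis: DM differentiation medium, where day 0 is still growth medium, and GM growth medium); points are rows and black lines their means. miR-322, miR-503 and both miR-351 assays were highest on DM day 2, while miR-542-3p, miR-542-5p, miR-450a-5p and rno-miR-450a had a higher mean on DM day 5 than on DM day 2.

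By differentiation day 2 the cluster was higher than on day 0. Against MammU6, 7 of the 8 tested members rose and 0 fell, and the same 7 had all 4 rows of day 2 above all 4 rows of day 0. Over all assays tested, 28.4% rose and 4.53% fell in this comparison, and 25.1% had all rows higher without overlap. The median member change was 1.63, against 0.66 over the 243 assays tested, so part of each change is shared with the average miRNA.

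miR-503 changed most. Its level was -8.67, -8.79, -8.81 and -8.52 in the 4 rows of day 2, against -11.32, -11.88, -11.65 and -10.76 on day 0. The rows of day 2 were tightly grouped and far above those of day 0, a rise of 2.71 ± 0.35 (log2 ± SE, 4 rows a day, adjusted p = 6.84e-05). miR-322, its neighbour with the nearly identical seed shown above, had -7.30, -7.95, -7.72 and -7.51 on day 2 and -9.15, -10.20, -9.45 and -9.10 on day 0. Again no row of day 2 overlapped day 0, and the rise was 1.86 ± 0.37 (adjusted p = 0.00101).

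miR-351, with the miR-125 seed, had levels of -8.25, -8.59, -9.03 and -8.21 on day 2, against -10.67, -10.31, -10.27 and -9.60 on day 0. It rose by 1.69 ± 0.31 (adjusted p = 0.000514) and its rat counterpart by 1.58 ± 0.28 (adjusted p = 0.000413). Both assays changed in the same direction and neither overlapped its day 0 rows.

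In the second block 3 of 4 assays rose. miR-542-3p, described in human cancer cells as acting on survivin, rose by 1.51 ± 0.44 (adjusted p = 0.0153) and miR-542-5p, the other arm of that hairpin, by 1.15 ± 0.33 (adjusted p = 0.0140). rno-miR-450a rose by 1.71 ± 0.58 (adjusted p = 0.0329). That call was lost without any of 4 rows, and the change was 1.05 without row 3 of day 0, where the level was -19.83 and the other 3 rows lay between -17.77 and -16.55. The mouse assay miR-450a-5p did not pass, at 1.06 ± 0.48 (adjusted p = 0.103). It passed at 1.42 without row 1 of day 0, whose -13.42 was the highest of its day. Deviations of same-position rows correlated at 0.03 to 0.65 over 221 assays in differentiation, though the labels give no pairing. In limma with row position as a block, miR-450a-5p passed (adjusted p = 0.00935).

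The choice of reference changed these counts. Against the row median miRNA only miR-503 (1.75 ± 0.36, adjusted p = 0.00104) and miR-322 (0.90 ± 0.32, adjusted p = 0.0325) rose on day 2, where 11.9% of assays rose and 32.9% fell. The other 6 members kept a positive change on that scale, from 0.11 for miR-450a-5p to 0.76 for rno-miR-450a. The median over all assays was -0.30 there and 0.68 over the members.

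Most of this rise came after day 1. Between day 1 and day 0 no member passed in limma and 1 of the 8, miR-503, had an unadjusted p under 0.05 (1.03 ± 0.35, adjusted p = 0.196). Few assays passed at all in that comparison, 1.68% upward and 0.42% downward. miR-503 lay at -10.46, -10.75, -10.80 and -9.47 on day 1, and these rows overlapped those of day 0. In limma with row position as a block, miR-503 passed (adjusted p = 0.00524). The member median was 0.20, and 0.07 over all assays. Between day 2 and day 1, 6 members rose against MammU6, where 11.6% of assays rose and 1.66% fell. miR-503 rose by 1.67 ± 0.35 (adjusted p = 0.00533) and miR-322 by 1.54 ± 0.37 (adjusted p = 0.0112). The miR-351 assays rose as well, by 1.35 ± 0.28 for the rat sequence and 1.27 ± 0.31 for the mouse sequence. miR-542-3p (adjusted p = 0.0424) and miR-542-5p (adjusted p = 0.0498) stood close to the threshold, and each was lost without any of 7 rows. With row position as a block, miR-450a-5p (adjusted p = 0.0297) and rno-miR-450a (adjusted p = 0.0026) passed too. No member passed against the row median in that comparison, where 7.05% of assays rose and 10.4% fell, and 3 had an unadjusted p under 0.05.

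**Figure D2:**
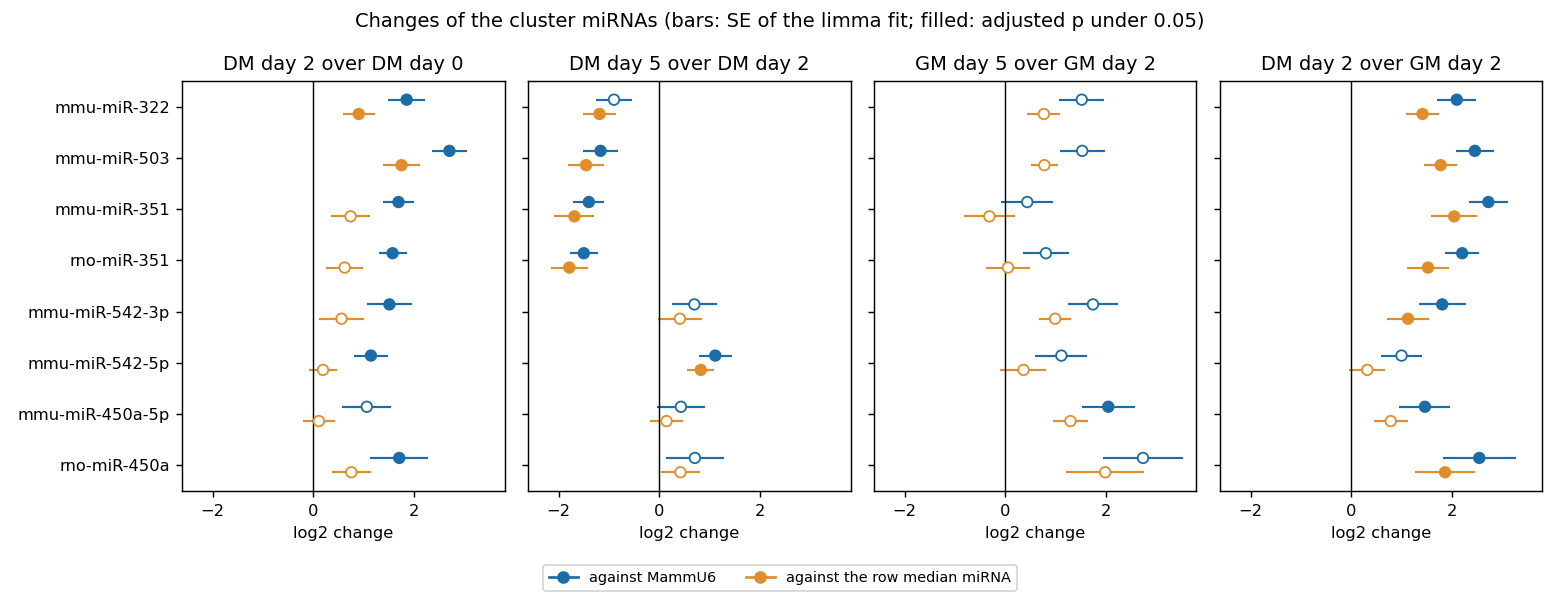
Log2 change (x axis) of each of the 8 tested cluster miRNAs (y axis) in 4 comparisons (DM differentiation medium, GM growth medium), with the SE of the limma fit as bars, against MammU6 in blue and against the row median miRNA in orange; filled points had an adjusted p under 0.05. From DM day 2 to day 5 the 4 assays of the first block lie below zero on both scales and the 4 of the second block above it.

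Between day 2 and day 5 of differentiation, members changed in both directions. Of the first block, miR-351, rno-miR-351 and miR-503 fell against MammU6. In the second, miR-542-5p rose and the other 3 assays did not pass. Over all assays 9.31% rose and 4.86% fell. On day 5, 4 members had all rows below those of day 2, where 9.31% of assays did, and 1 had all rows above, where 13% did. The median change was -0.24 over the members and 0.16 over the 247 assays tested.

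miR-351 had levels of -9.79, -9.60, -10.47 and -9.82 on day 5, all below the day 2 rows given above. It fell by 1.40 ± 0.31 (adjusted p = 0.00563). rno-miR-351 fell by 1.5 ± 0.28 (adjusted p = 0.00208), with day 5 rows of -9.97 to -9.12 and day 2 rows of -8.07 to -7.85. Neither assay passed on day 5 over day 0, with changes of 0.29 ± 0.31 (adjusted p = 0.431, 95% interval -0.36 to 0.95) and 0.08 ± 0.28 (adjusted p = 0.824, 95% interval -0.51 to 0.66).

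miR-503 stood at -9.49, -10.11, -10.45 and -9.41 on day 5, lower than day 2 by more than the spread between rows. It fell by 1.17 ± 0.35 (adjusted p = 0.0341), a call lost without any of 5 rows, with changes between -1.21 and -0.97 in those fits. miR-322 had -8.09, -8.68, -9.01 and -8.30 on day 5. No row overlapped day 2, but the change of -0.90 ± 0.37 did not pass (adjusted p = 0.111). With row position as a block in limma it did (adjusted p = 0.0095). On the row median scale, where 15.4% of assays rose and 19.8% fell, all 4 assays of the first block fell, miR-322 by 1.19 ± 0.32 (adjusted p = 0.01) and rno-miR-351 by 1.79 ± 0.37 (adjusted p = 0.00241).

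miR-542-5p rose from day 2 on both scales. Its level was -13.01, -13.41, -13.73 and -12.69 on day 5, against -14.05, -14.45, -14.70 and -14.09 on day 2. Every row of day 5 was higher, and the rise was 1.11 ± 0.33 against MammU6 (adjusted p = 0.0316) and 0.83 ± 0.27 against the row median (adjusted p = 0.0282). The MammU6 call was lost without any of 6 rows, with changes between 0.94 and 1.19 in those fits. miR-542-3p had -13.19, -13.38, -13.65 and -12.47 on day 5 and -13.71, -14.20, -14.02 and -13.55 on day 2. These rows overlapped, and its change of 0.70 ± 0.44 did not pass (adjusted p = 0.355). Neither did those of rno-miR-450a (0.71 ± 0.58, adjusted p = 0.466) and miR-450a-5p (0.43 ± 0.48, adjusted p = 0.634).

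Over the whole course, from day 0 to day 5, 6 of the 8 members rose and 0 fell against MammU6. In the same comparison 42.3% of all assays rose and 9.76% fell. The largest rises were in the second block: 2.42 ± 0.58 for rno-miR-450a (adjusted p = 0.00293), 2.26 ± 0.33 for miR-542-5p (adjusted p = 4.30e-05) and 2.21 ± 0.44 for miR-542-3p (adjusted p = 0.000819). miR-450a-5p rose by 1.49 ± 0.48 (adjusted p = 0.0171), a call lost without any of 3 rows, and its day 5 rows of -12.27, -13.44, -13.99 and -12.29 overlapped day 0. miR-503 rose by 1.54 ± 0.35 (adjusted p = 0.00212). miR-322 rose by 0.96 ± 0.37 (adjusted p = 0.0388), a call lost without any of 5 rows, and against the row median its change was -0.29 ± 0.32 (adjusted p = 0.475). The 95% interval on that scale was -0.97 to 0.40, and the median assay moved by 0.89 against MammU6. On the row median scale miR-542-5p (1.02 ± 0.27, adjusted p = 0.00545) and rno-miR-450a (1.18 ± 0.39, adjusted p = 0.0208) rose, rno-miR-351 fell by 1.17 ± 0.37 (adjusted p = 0.0152), and 17.1% of assays rose and 35.8% fell.

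From day 1 to day 5, 4 members rose against MammU6 and 0 fell, all in the second block, where 32.9% of assays rose and 7.41% fell. miR-542-3p rose by 2.15 ± 0.44 and miR-542-5p by 2.14 ± 0.33. rno-miR-450a rose by 2.42 ± 0.58 and miR-450a-5p by 1.32 ± 0.48 (adjusted p = 0.0389), the last lost without any of 5 rows. The first block had changes between -0.15 and 0.64, none of which passed. In limma with row position as a block, miR-322 (adjusted p = 0.0287) and miR-503 (adjusted p = 0.035) did pass. miR-322 passed at 0.95 without row 4 of day 1. By the row median, miR-351 (-1.06 ± 0.39) and rno-miR-351 (-1.07 ± 0.37) fell and 3 of the second block rose, where 19.8% of assays rose and 28.8% fell.

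Changes within the cluster were also measured without any outside reference, as the Ct of miR-322 minus the Ct of another member in the same row. This scale was chosen after the values were seen. Relative to miR-322, miR-542-5p was at -4.92, -4.73, -4.72 and -4.39 on differentiation day 5, against -6.75, -6.50, -6.98 and -6.58 on day 2. The day 5 rows lay far above, and the rise was 2.01 ± 0.21 (adjusted p = 3.78e-06). miR-542-3p was at -5.10, -4.70, -4.64 and -4.17 on day 5 and -6.41, -6.25, -6.30 and -6.04 on day 2, a rise of 1.6 ± 0.23 (adjusted p = 7.87e-05). miR-450a-5p rose by 1.33 ± 0.27 (adjusted p = 0.00104). These 3 calls were kept with every row left out in turn. rno-miR-450a rose by 1.61 ± 0.53 (adjusted p = 0.0192), but not without row 1 of day 5 (1.36).

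miR-503 (-0.27 ± 0.21, adjusted p = 0.266) and miR-351 (-0.50 ± 0.31, adjusted p = 0.168) did not pass relative to miR-322, nor did rno-miR-351 (-0.60 ± 0.25, adjusted p = 0.0507), which passed at -0.67 without row 1 of day 2. A rise relative to miR-322 was common, with 59.9% of all assays rising and 0.81% falling, and the median assay moved by 1.06. The changes of the second block lay above that median, and those of miR-503 and the miR-351 assays below zero.

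On the way to day 2 the order was different. Relative to miR-322, miR-450a-5p (-0.79 ± 0.27, adjusted p = 0.0168) and miR-542-5p (-0.71 ± 0.21, adjusted p = 0.00836) fell from day 0 to day 2, as did 64.2% of all assays. Both fell less than the median assay, which moved by -1.20. The fall of miR-450a-5p was lost without row 1 of day 0 (-0.54). miR-503 rose relative to miR-322, by 0.85 ± 0.21 (adjusted p = 0.00268), where 3.29% of assays did. Its rows relative to miR-322 were -1.37, -0.84, -1.09 and -1.01 on day 2, all above those of day 0 (-2.17, -1.68, -2.20 and -1.66).

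**Figure D3:**
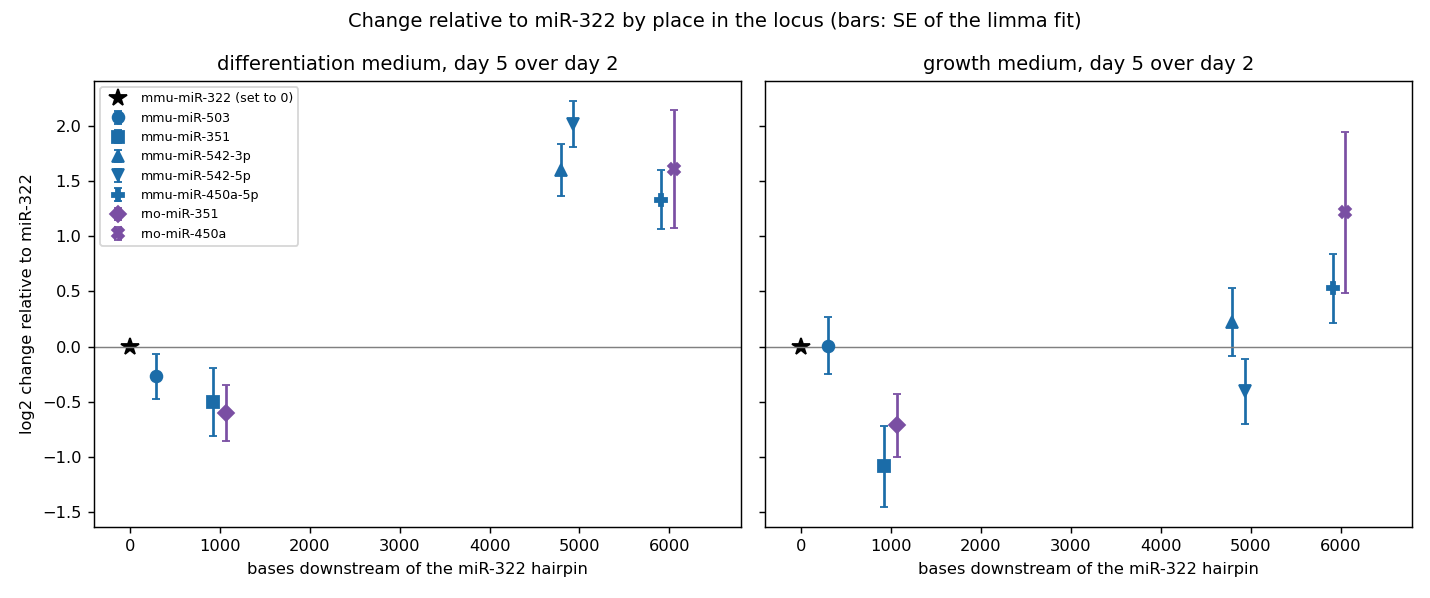
Log2 change relative to miR-322 of the same row (y axis, bars: SE of the limma fit) by distance in bases downstream of the miR-322 hairpin (x axis) between day 2 and day 5, in differentiation medium (left) and growth medium (right). miR-450a is drawn at the first of its hairpins in the order of transcription, points at the same hairpin are set slightly apart, mouse assays are blue and rat assays purple. In differentiation medium the 4 assays of miR-542 and miR-450a lie above 1 and those of miR-503 and miR-351 below zero. In growth medium rno-miR-450a (1.22) also lies above 1, and miR-351 (-1.08), rno-miR-351 (-0.71) and miR-542-5p (-0.405) lie below zero. There miR-503, miR-542-3p and miR-450a-5p lie between 0.01 and 0.53, and no member passed relative to miR-322.

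In growth medium the change between day 2 and day 5 against MammU6 was positive for all 8 tested members, and 4 stood at the edge of the threshold. miR-450a-5p rose by 2.05 ± 0.52 (adjusted p = 0.0347), with rows of -13.81, -11.43, -13.19 and -12.95 on day 5, against -14.88, -14.26, -15.32 and -15.11 on day 2. It was the only member that passed, where 7.02% of assays rose and 0.413% fell, and it was lost without any of 3 rows. miR-322 (1.52 ± 0.45), miR-503 (1.53 ± 0.45), miR-542-3p (1.74 ± 0.50) and rno-miR-450a (2.74 ± 0.79) all had an adjusted p of 0.0511. Rows at the same position deviated together in proliferation (correlations of 0.25 to 0.38 over 221 assays). With row position as a block these 4 passed too, at adjusted p = 0.0225 for miR-322 and rno-miR-450a, 0.0116 for miR-503 and 0.0129 for miR-542-3p, and miR-450a-5p had an adjusted p of 0.0108.

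In these 4 and miR-450a-5p all rows of day 5 lay above all rows of day 2, as they did in 11.6% of all assays. For miR-322 the rows were -8.93, -7.18, -8.54 and -8.14 on day 5 and -9.41, -9.50, -9.81 and -10.15 on day 2. For miR-503 they were -10.25, -8.62, -9.97 and -9.66 on day 5 and -10.99, -10.63, -11.40 and -11.60 on day 2. Row 2 of day 5 was the highest in both, as noted above for all members. Leaving out the row with the latest MammU6 on each day gave 4 members called, and leaving out 1 row at a time gave 0 to 5. The share of all assays in those fits was not counted.

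The miR-351 assays did not pass in growth medium. For mmu-miR-351 the day 5 rows of -11.77, -9.87, -11.68 and -9.91 fell into 2 pairs, 1 pair below the day 2 rows (-11.34, -11.04, -11.07 and -11.53) and 1 pair above them. Its change was 0.44 ± 0.51 (adjusted p = 0.533), and that of rno-miR-351 was 0.81 ± 0.46 (adjusted p = 0.220). miR-542-5p did not pass either (1.12 ± 0.51, adjusted p = 0.159). With the row median as zero no member passed in limma, where 3.72% of assays rose and 2.07% fell, and 5 had an unadjusted p under 0.05. The median member change was 1.53 against MammU6 and 0.77 against the row median, and that of all assays 0.75 and -0.004. miR-351 was the only member with a negative change against the row median (-0.32 ± 0.50, adjusted p = 0.702). Relative to miR-322 it changed by -1.08 ± 0.36 (adjusted p = 0.0802) and miR-503 by 0.01 ± 0.26 (adjusted p = 0.982), and none of the 7 other members passed, where 0.413% of assays rose and 2.89% fell.

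The media were then compared on the same day number, which may not be the same time since seeding. On day 2, 7 of 8 members were higher in differentiation medium than in growth medium and 0 were lower, against 23.2% of assays higher and 6.22% lower. In the same 7, all rows of differentiation medium were higher, as in 22% of assays. The difference was 2.73 ± 0.39 for miR-351 (adjusted p = 1.37e-05), 2.46 ± 0.38 for miR-503 (adjusted p = 2.32e-05) and 2.10 ± 0.38 for miR-322 (adjusted p = 0.000156). rno-miR-351 was higher by 2.21 ± 0.33, rno-miR-450a by 2.55 ± 0.72 (1.73 and not called without row 3 of proliferation day 2) and miR-542-3p by 1.81 ± 0.47. miR-450a-5p was higher by 1.47 ± 0.51 (adjusted p = 0.0319), a call lost without any of 5 rows.

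miR-542-5p did not pass on day 2 (1.00 ± 0.40, adjusted p = 0.0686), though it did at 1.25 without row 1 of proliferation day 2. The member median was 2.15 and that of all assays 0.37, and against the row median 6 members were still higher, where 19.1% of assays were higher and 33.6% lower. The arms of miR-542 differed in that comparison: relative to miR-542-3p of the same row, a scale chosen after the values were seen, miR-542-5p was lower in differentiation medium (-0.81 ± 0.31, adjusted p = 0.0292, rows overlapping), where 63.1% of assays were lower and 5.81% higher. In no other comparison did the arms pass on this scale, and it was not refitted with rows left out. Relative to miR-322, miR-542-5p (-1.10 ± 0.22, adjusted p = 0.000151) and miR-450a-5p (-0.63 ± 0.27, adjusted p = 0.0369, lost without any of 4 rows) were lower, where 71% of assays were lower and 4.56% higher. Both differed by less than the median assay, which was at -1.73.

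On day 5 no member passed between the media against MammU6 in limma, 2 had an unadjusted p under 0.05, and 11.8% of assays were higher and 17.1% lower in differentiation medium. miR-542-5p was at 1.00 ± 0.40 (adjusted p = 0.0626, 95% interval 0.16 to 1.83), miR-351 at 0.89 ± 0.39 (adjusted p = 0.0881) and miR-322 at -0.32 ± 0.38 (adjusted p = 0.566, 95% interval -1.12 to 0.47). miR-351 passed without row 2 (1.2) or row 4 (1.19) of proliferation day 5, and miR-542-5p without row 2 (1.39). Relative to miR-322, 3 members were higher in differentiation medium on day 5, where 21.5% of assays were higher and 14.2% lower: miR-542-5p by 1.32 ± 0.22 (adjusted p = 7.7e-05), miR-542-3p by 1.09 ± 0.25 (adjusted p = 0.0019) and miR-351 by 1.21 ± 0.32 (adjusted p = 0.006). The rat assay rno-miR-351 did not pass, at 0.22 ± 0.24 relative to miR-322 (adjusted p = 0.495) and -0.10 ± 0.33 against MammU6 (adjusted p = 0.838).

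The change from day 2 to day 5 was itself tested between the media. The first block differed: miR-503 by -2.70 ± 0.53 (adjusted p = 0.00372), miR-322 by -2.42 ± 0.54 (adjusted p = 0.00576), rno-miR-351 by -2.31 ± 0.47 (adjusted p = 0.00372) and miR-351 by -1.84 ± 0.55 (adjusted p = 0.0466). Negative values mean a lower change in differentiation medium, and 6.17% of assays passed that way and 1.23% the other. The miR-351 call was lost without any of 12 rows and against the row median (-1.37 ± 0.64, adjusted p = 0.148), where the other 3 remained and 12.3% of assays passed downward and 6.58% upward. None of the second block passed in this fit: miR-450a-5p had -1.62 ± 0.72 (adjusted p = 0.172), rno-miR-450a -2.03 ± 1.02 (adjusted p = 0.240) and miR-542-3p -1.05 ± 0.66 (adjusted p = 0.343). The miR-450a changes lay near that of miR-351, so passing or not does not set them apart from the first block. With row position as a block in limma, miR-450a-5p (adjusted p = 0.011) and rno-miR-450a (adjusted p = 0.0294) passed. For miR-542-5p the difference was -0.0025 ± 0.57 (adjusted p = 1, 95% interval -1.19 to 1.18).

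Relative to miR-322, the change differed between the media for miR-542-5p (2.42 ± 0.31, adjusted p = 4.24e-06) and miR-542-3p (1.38 ± 0.35, adjusted p = 0.00242), both larger in differentiation medium. This was again common, with 70.8% of all assays passing upward and 0.412% downward, and it did not reach the threshold for miR-450a-5p (0.80 ± 0.38, adjusted p = 0.063, but passing without any of 4 rows) and rno-miR-450a (0.39 ± 0.90, adjusted p = 0.707). The median assay differed by 1.88 on this scale. Of the second block only miR-542-5p lay above that median.

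Other miRNAs carry the same seeds from other loci, and they were set beside the cluster. miR-15a, miR-15b, miR-16, miR-195 and miR-497 have the seed of miR-322, and miR-125a-5p and miR-125b-5p that of miR-351. The sequences below, from RefSeq on GRCm38.p6, hold the same capitals as those cluster members and differ outside them.
miR-15b-5p: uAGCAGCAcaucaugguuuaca
miR-16-5p: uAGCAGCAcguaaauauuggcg
miR-125b-5p: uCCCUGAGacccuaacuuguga
Of these 7 relatives none passed between day 2 and day 0 of differentiation against MammU6. miR-15a was at 0.90 ± 0.49 (adjusted p = 0.160), miR-15b at -0.75 ± 0.37 (adjusted p = 0.127) and miR-125b-5p at 0.22 ± 0.49 (adjusted p = 0.748). Against the row median 6 of the 7 fell, where 32.9% of assays did, among them miR-15b by 1.70 ± 0.18 (adjusted p = 8.39e-06) and miR-125b-5p at -0.74 ± 0.17 (adjusted p = 0.00317), and miR-15a did not pass (-0.05 ± 0.51, adjusted p = 0.942). Measured against miR-322 of the same row, all 7 fell in that comparison, among them miR-16 by 2.43 ± 0.26 (adjusted p = 3.02e-06) and miR-15b by 2.60 ± 0.32 (adjusted p = 1.09e-05), where 64.2% of assays fell.

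On day 5 some of the relatives were below day 0. miR-15b fell by 2.99 ± 0.37 against MammU6 from day 0 to day 5 (adjusted p = 7.86e-06), miR-16 by 1.52 ± 0.32 (adjusted p = 0.00106) and miR-195 by 1.32 ± 0.31 (adjusted p = 0.00270), while miR-503 and miR-322 rose as given above. Relative to miR-322 the same 3, miR-497 and miR-125a-5p fell, with miR-15b at -3.95 ± 0.32 (adjusted p = 3.19e-07), where 23.2% of assays fell and 18.3% rose. miR-125a-5p (0.20 ± 0.27, adjusted p = 0.529) and miR-125b-5p (0.05 ± 0.49, adjusted p = 0.940) did not pass against MammU6. Measured from the row median they changed by -1.04 ± 0.23 (adjusted p = 0.00143) and -1.19 ± 0.17 (adjusted p = 3.63e-05). In growth medium none of the 7 passed between day 5 and day 2 on any of the 3 scales.

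**Figure D4:**
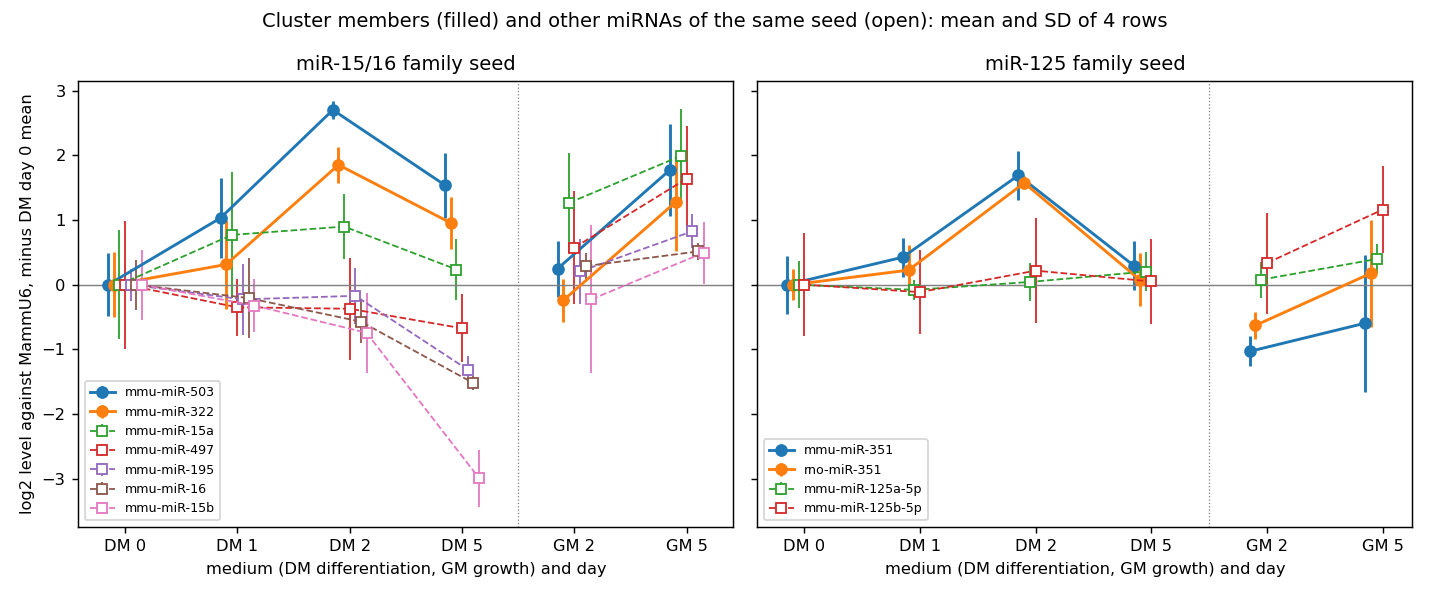
Mean log2 level against MammU6 minus the mean of DM day 0 (y axis), with the SD of 4 rows as bars, by medium and day (x axis) for miR-322 and miR-503 with the other miRNAs of the miR-15/16 seed (left) and for miR-351 with those of the miR-125 seed (right). Cluster members (filled) peak on DM day 2. Of the others (open), miR-15b, miR-16, miR-195 and miR-497 had their lowest mean on DM day 5. Both miR-125 assays stayed within 0.3 of zero throughout the DM days.

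The miRNAs outside the cluster with the most similar course were found by correlation over the 6 day columns with the mean of the 8 members, on the row median scale. Among 213 other assays the 5 highest were miR-544 (r = 0.89), rno-miR-532-5p (0.85), miR-501-3p (0.84), miR-486 (0.82) and miR-381 (0.82). A correlation does not compare the size of the changes. miR-486 was highest on differentiation day 5 (-4.095, against -4.845 on day 2), and the others named were highest on differentiation day 2. In all, 7 other assays reached 0.8. The members' own correlations with their mean, which includes each of them, ran between 0.37 for miR-542-5p and 0.87 for miR-322, with 2 of 8 at 0.8 or more. The assays share rows and reference, so these values are a description. In that mean, differentiation day 2 was the highest column (0.66 above the members' own average) and proliferation day 2 the lowest (-0.70).

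For the 6 members in the authors' deposited table (the mouse assays without miR-450b-5p) the deposited folds were the same in direction and size as the changes given here. In the authors' deposited table miR-503 on differentiation day 2 over day 0 is 6.52-fold and miR-542-5p on day 5 over day 0 is 4.78-fold. The proliferation column of the authors' deposited table runs as day 2 over day 5, and its value for miR-322 is -2.87, which stands for a 2.87-fold higher level on day 5.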

How the data were processed

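The deposited values are raw Ct of 381 assays from an Applied Biosystems 7900HT, per the labels' protocols, and an other, log-like unit that falls as template rises. The signed fold scores deposited by the authors were used only for comparison. Total RNA was extracted with TRIzol, per the labels' protocols. Software, thresholds and any pooling are not given in the sources used here. The deposited pairs repeat 6 day columns of 4 rows. Wells without a Ct in 40 cycles were left out. Assays were tested with a Ct in at least 3 of 4 rows on each day and a mean Ct under 35 on at least 1. Tests were limma 3.58.1 (lmFit, eBayes, R 4.3.3), two-sided, with Benjamini-Hochberg adjustment over all miRNA assays tested and a threshold of 0.05. Differentiation days shared a fit, proliferation days another, and all 6 day columns were fitted together for comparisons between media. The script was tested on simulated data. The number of rows limits the precision. Members, seed relatives, marker lists and tests were chosen with earlier results of these data known. Members and relatives were named by rule, and the 5 non-members of highest correlation. Sequences and coordinates are RefSeq's (GRCm38.p6): all 7 mouse members were matched, and the 2 rat members were not. Alternatives were the reference, Ct filters, absent wells, row position, samples in the fit, threshold and left-out rows. Python 3.11.15 and matplotlib 3.10.9 made the figures.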

Additional observations from a re-analysis of the deposited data

Results flagged for a closer look

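Some rows stood apart from the other 3 of their day by more than Dixon's limit. Against MammU6 this was miR-351 in row 4 of differentiation day 1, at -9.34. Against the row median there were 4 on differentiation day 0: miR-351 in row 1 at 0.70, rno-miR-351 in row 1 at 1.61, miR-450a-5p in row 2 at -2.81 and rno-miR-450a in row 3 at -7.02. Of 48 sets of 4 rows checked on each scale, 1 and 4 stood out, and chance alone does so in about 1 in 20.

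The change from day 2 to day 5 differed between differentiation medium and growth medium by the test of the difference itself in 4 members: -2.42 for miR-322, -2.70 for miR-503, -2.31 for rno-miR-351 and -1.84 for miR-351.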

How the results depend on the processing

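Counts of members called moved by over 1.5 times in these settings. Shares of all assays were counted only in the main fit and with the row median or a member as reference. They were not counted for the other settings or at unadjusted p under 0.05. Whether those member counts moved with all assays was therefore not tested. With the row median as reference they were 2 for differentiation day 2 over day 0, 0 for day 2 over day 1, 3 for day 5 over day 0 (2 higher, 1 lower) and 0 for proliferation. With the mean of the 4 other controls they were 1 for day 2 over day 1, 3 for day 5 between media and 2 for the difference in change between media. An adjusted p under 0.01 gave 4, 2, 2 and 0 for day 2 over day 0, day 2 over day 1, day 5 over day 2 and proliferation, and 0.1 gave 5 for proliferation and 2 for day 5 between media. Proliferation also gave 5 with the day mean of MammU6, 5 with a mean Ct under 32 on both days, 0 with absent wells set to 40 cycles, and 4 without the rows of latest MammU6, which gave 2 for day 5 between media. Row position as a replicate block gave 1 for day 1 over day 0 and 5 for proliferation. Deviations of same-position rows correlated at 0.03 to 0.65 in differentiation and 0.25 to 0.38 in proliferation over 221 assays, and the labels give no pairing. With the block, miR-450a-5p and rno-miR-450a also passed in the difference in change between media (6 members). The block lies within each medium, so it could not be fitted between media on day 2 or day 5. With 1 row left out, counts ran 0 to 0 for day 1 over day 0, 6 to 8 for day 2 over day 0, 4 to 6 for day 2 over day 1, 4 to 6 for day 5 over day 0, 3 to 5 for day 5 over day 1, 2 to 4 for day 5 over day 2, 0 to 5 for proliferation, 5 to 7 and 0 to 2 between media on days 2 and 5, and 3 to 4 for the difference in change. Where a change had passed on at least 1 of the scales, the direction turned with the row median for miR-322 (-0.29) and rno-miR-351 (-1.17) on day 5 over day 0. Changes that passed on neither scale turned sign as well, among them miR-351 on day 5 over day 0 (-0.95) and in proliferation (-0.32), and miR-322 (-0.28) and miR-503 (-0.42) on day 5 over day 1. The causes were not tested. Late Ct limits miR-450b-5p, and rno-miR-450a in part.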
